A study of Mus musculus with 24 samples.

Results

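The comparison described here is that of RIC+DE+PFD lungs with DE+PFD lungs, and it asks what remote ischemic preconditioning added to the lung transcriptome of mice that breathed diesel exhaust and took pirfenidone. Its members were taken from the treatment labels: 3 RIC+DE+PFD and 3 DE+PFD libraries, 6 of the 24 libraries of the series. All mice were male C57BL/6, 20 weeks old, and RNA came from lung. Both groups inhaled diesel exhaust (DE) for 30 min a day on 5 days a week over about 8 weeks. Both also received pirfenidone (PFD) by mouth at 300 mg/kg a day on 6 days a week, in 0.5% carboxymethylcellulose. The RIC+DE+PFD mice had, before the exposure, remote ischemic conditioning (RIC) of the left leg on 3 days a week for 4 weeks, each session with 3 cycles of 5 min without blood flow and 5 min of reperfusion. No sham procedure is named for the DE+PFD mice. In each group library 1 carries a March date and libraries 2 and 3 an October date. Nothing says that the libraries of a group came from separate animals, so p-values measure the spread between these samples, which may be technical.

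Remote ischemic conditioning is a procedure in which brief interruptions of blood flow in a limb protect distant organs from later injury, through nerve signals and circulating mediators such as bradykinin, adenosine and nitric oxide. Pirfenidone is an antifibrotic drug used in idiopathic pulmonary fibrosis, where activated fibroblasts, driven largely by TGF-beta, lay down collagen. Diesel exhaust carries soot particles and aromatic hydrocarbons that reach the airways and alveoli.

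Total counts were 12224106, 11298160 and 9172489 in the RIC+DE+PFD libraries and 14356904, 3906807 and 9446217 in the DE+PFD libraries, so DE+PFD 2 gives the least precise values. Lung markers were abundant in all 6. Sftpc, the surfactant protein of alveolar type 2 cells, lay between 17810 and 68170 CPM, the count scaled to the library's total, and Alb, the liver's albumin gene, was at or below 3.92 CPM. RIC+DE+PFD 1, or library 1 for short, stood apart from every other library of the series. Its score on the first principal component was 116.7, where the other 23 lay between -59.9 and 22.5. Its 100 most abundant genes held 39.63% of its counts, against 18.08% to 29.73% in the others. Its deviations from the typical library fell with the exon length of the gene (Spearman's rho of -0.56 across 16269 genes, a description of 1 library). In the other libraries that rho ran from -0.341 in DE 2 to 0.48 in RIC+DE 2, so a trend with length was not particular to library 1. Most results are therefore given with this library and without it. In bulk tissue, fewer cells of a type and less RNA per cell cannot be told apart.

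Whether a gene passed an adjusted p of 0.05 depended on the tool and on the libraries kept. In the edgeR fit of 24 libraries 0 of 17490 genes passed, higher or lower, with a smallest adjusted p of 0.064. At an unadjusted p under 0.05, 1869 genes (10.7%) were higher in RIC+DE+PFD and 1168 (6.68%) were lower. With RIC+DE+PFD 1 left out, 0 of 17598 genes passed in edgeR, with a smallest adjusted p of 0.086. At an unadjusted p under 0.05 there were then 837 higher (4.76%) and 763 lower (4.34%). DESeq2 on the same design called 44 genes higher (0.296% of 14866) and 94 lower (0.632%), and without RIC+DE+PFD 1 it called 20 higher and 38 lower. The edgeR count of lower genes was 23 without DE+PFD 3 and 15 without RIC+DE+PFD 3. The median log2 fold change over all genes was 0.02 with the library and -0.01 without it. The 3 libraries of one group lay wholly above the 3 of the other for 919 genes (5.25%, RIC+DE+PFD higher) and 1304 genes (7.46%, RIC+DE+PFD lower).

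Slc8a1, the sodium-calcium exchanger of the plasma membrane, had the smallest p. It was at 10.9, 18.9 and 23.6 CPM in RIC+DE+PFD, against 42.7, 51.1 and 37.5 CPM in DE+PFD. All 3 RIC+DE+PFD libraries were below all 3 DE+PFD libraries, and also below the 29.1 to 42.5 CPM of the other 18 libraries. The log2 fold change was -1.33 ± 0.21 (SE, edgeR adjusted p = 0.0641) and -1.10 ± 0.19 without RIC+DE+PFD 1 (edgeR adjusted p = 0.0963). Cttnbp2, a cortactin-binding protein of the cell cortex, was at 4.24, 4.002 and 2.08 CPM in RIC+DE+PFD, against 8.40, 9.36 and 11.3 CPM in DE+PFD. Its groups did not overlap either, and its log2 fold change was -1.49 ± 0.26, or -1.71 ± 0.28 without library 1 (edgeR adjusted p = 0.11 and 0.0855). Trps1, a GATA-type transcriptional repressor, stood at 9.38, 13.6 and 16.5 CPM in RIC+DE+PFD, against 29.1, 30.5 and 25.7 CPM in DE+PFD. Adamts12, a secreted metalloprotease, was at 0.899, 1.09 and 1.38 CPM in RIC+DE+PFD, against 6.43, 5.62 and 4.35 CPM in DE+PFD. Both were separate between the groups, with log2 fold changes of -1.13 ± 0.21 for Trps1 and -2.33 ± 0.44 for Adamts12, and -0.96 ± 0.21 and -2.31 ± 0.52 without library 1 (edgeR adjusted p = 0.11 for both with it and 0.26 for both without). St6galnac3, a sialyltransferase, was at 16.7, 11.1 and 12.7 CPM in RIC+DE+PFD, against 39.6, 48.4 and 32.5 CPM in DE+PFD, again without overlap. DESeq2 gave an adjusted p under 0.05 to all 5 of these genes in the fit of 24 libraries, the smallest being 2.76e-06 for Slc8a1. The log2 fold change of St6galnac3 was -1.55 ± 0.40 with library 1 and -2.02 ± 0.44 without it. Adamts12 was chosen after its values were seen.

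Among the genes higher in RIC+DE+PFD with the smallest p in the fit of 24 libraries, a set named after the values were seen, Ing1, a chromatin reader and tumour suppressor, was at 82.5, 61.02 and 60.3 CPM in RIC+DE+PFD, against 43.9, 41.7 and 40.4 CPM in DE+PFD. Taf5l, a subunit of histone acetyltransferase complexes, was at 39.96, 28.01 and 26.4 CPM in RIC+DE+PFD, against 19.8, 18.2 and 19.03 CPM in DE+PFD. Fadd, the adaptor that links death receptors to caspases, was at 30.3, 17.9 and 19.5 CPM in RIC+DE+PFD, against 13.9, 10.4 and 12.7 CPM in DE+PFD. For all 3 the groups were separate and the March library was the highest of the 6. Their log2 fold changes were 0.68 ± 0.15, 0.72 ± 0.15 and 0.84 ± 0.18 in that order, and 0.59 ± 0.14, 0.48 ± 0.12 and 0.58 ± 0.17 without RIC+DE+PFD 1 (edgeR adjusted p = 0.114 for each with the library, and 0.26, 0.27 and 0.313 without). Nop53, a ribosome biogenesis factor, was at 461, 308 and 299.5 CPM in RIC+DE+PFD, against 164, 225 and 193 CPM in DE+PFD, also without overlap (log2 0.90 ± 0.22, and 0.53 ± 0.16 without library 1). In the fit of 24 libraries the DESeq2 adjusted p was 0.00227 for Ing1, 0.00633 for Taf5l, 0.011 for Fadd and 0.008 for Nop53.

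The smallest p without RIC+DE+PFD 1 among higher genes was that of Tmem200b, a transmembrane protein, at 15.4, 33.8 and 34.6 CPM in RIC+DE+PFD, against 19.2, 18.99 and 12.2 CPM in DE+PFD. Libraries 2 and 3 were above all DE+PFD libraries, and library 1 lay among them. The log2 fold change without library 1 was 1.21 ± 0.20 (edgeR adjusted p = 0.0855), and 0.78 ± 0.29 with it. Angptl2, a secreted angiopoietin-like protein, was at 42.9, 141 and 97 CPM in RIC+DE+PFD, against 69.4, 61.5 and 51.8 CPM in DE+PFD. Aebp1, a collagen-binding matrix protein, was at 43.6, 207 and 164 CPM in RIC+DE+PFD, against 115, 132 and 102 CPM in DE+PFD. In both, libraries 2 and 3 were the 2 highest of the 6 and library 1 the lowest. Aebp1 had a log2 fold change of 0.66 ± 0.15 without library 1 and 0.16 ± 0.31 with it. Nptx1, a secreted pentraxin best known from neurons, was at 4.50, 30.3 and 23.8 CPM in RIC+DE+PFD, against 8.25, 10.7 and 9.14 CPM in DE+PFD, in the same order. Glt8d2, a glycosyltransferase, was higher in all 3 libraries, at 11.3, 15.3 and 13.5 CPM in RIC+DE+PFD, against 8.32, 6.42 and 7.94 CPM in DE+PFD. The log2 fold changes without library 1 were 1.02 ± 0.21 for Angptl2, 1.55 ± 0.31 for Nptx1 and 1.11 ± 0.26 for Glt8d2, and with it 0.59 ± 0.29, 1.00 ± 0.43 and 0.85 ± 0.26.

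**Figure D1:**
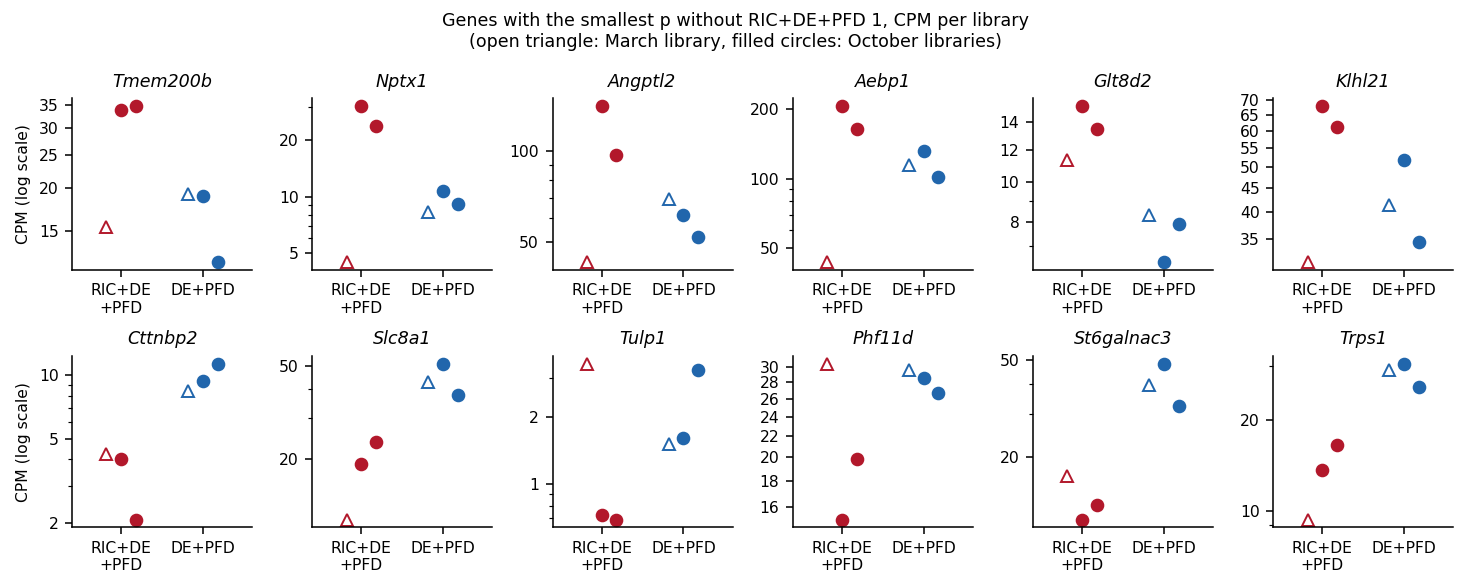
CPM per library on a log axis for the 12 genes with the smallest p without RIC+DE+PFD 1 (6 higher in the top row, 6 lower in the bottom row). Open triangles are March libraries and filled circles October libraries. RIC+DE+PFD 1 lies with or below DE+PFD for 5 of the 6 higher genes, with Glt8d2 the exception, and below DE+PFD for Cttnbp2, Slc8a1, St6galnac3 and Trps1.

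Circadian clock genes had the highest median fold change of the 58 gene lists examined once RIC+DE+PFD 1 was left out. The clock runs in most lung cells as a loop in which the BMAL1 (Arntl) and CLOCK proteins switch on Per, Cry, Nr1d and Dbp genes. The products of the Per, Cry and Nr1d genes in turn hold BMAL1 and CLOCK back. Of 19 clock genes tested, 11 were higher and 3 lower at an unadjusted p under 0.05 without RIC+DE+PFD 1, where 4.76% and 4.34% of all genes were. With RIC+DE+PFD 1 these counts were 3 higher and 3 lower, where 10.7% and 6.68% of all genes were. The median log2 fold change of the 19 was 0.87 without the library and 0.53 with it, against -0.01 and 0.02 over all genes. In libraries 2 and 3 of RIC+DE+PFD, 11 clock genes lay above all 3 DE+PFD libraries and 4 below, where 11.4% and 12.8% of all genes did. No clock gene passed the adjusted threshold in edgeR. The smallest edgeR adjusted p, 0.114 with the library and 0.26 without it, was that of Clock, which DESeq2 called (adjusted p = 0.00133).

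The activating arm was low in RIC+DE+PFD 2 and 3. Arntl was at 42.4, 5.73 and 11.8 CPM in RIC+DE+PFD, against 50.2, 49.5 and 35.9 CPM in DE+PFD. Npas2, a partner of BMAL1 that can stand in for CLOCK, was at 13.8, 2.37 and 3.69 CPM in RIC+DE+PFD, against 28, 23.5 and 16.6 CPM in DE+PFD. Clock itself was at 21.8, 34.01 and 34.5 CPM in RIC+DE+PFD, against 70.4, 49.2 and 68.7 CPM in DE+PFD. For Arntl, libraries 2 and 3 lay below all DE+PFD libraries and library 1 lay among them, while Npas2 and Clock were lower in all 3 libraries without overlap. Without library 1 the log2 fold changes were -2.45 ± 0.77 for Arntl, -2.84 ± 0.87 for Npas2 and -0.77 ± 0.17 for Clock (edgeR adjusted p = 0.349, 0.346 and 0.26), and with it -1.34 ± 0.70, -1.95 ± 0.74 and -1.04 ± 0.21.

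The repressing arm was high in the same libraries. Per1, Per2 and Per3 encode the period proteins. Per1 was at 19.8, 204 and 180.2 CPM in RIC+DE+PFD, against 60.8, 65.3 and 83.3 CPM in DE+PFD. Per2 was at 10.5, 172 and 91.3 CPM in RIC+DE+PFD, against 49.3, 72.8 and 22.1 CPM in DE+PFD. Per3 was at 15.2, 124 and 71.7 CPM in RIC+DE+PFD, against 26.9, 35.3 and 22.2 CPM in DE+PFD. In each of the 3 genes RIC+DE+PFD 2 and 3 were the highest of the 6 libraries and RIC+DE+PFD 1 the lowest. The log2 fold changes without library 1 were 1.31 ± 0.50, 1.85 ± 0.64 and 1.99 ± 0.65 for Per1, Per2 and Per3, and with it 0.72 ± 0.58, 1.14 ± 0.81 and 1.36 ± 0.70. Cry2, a cryptochrome, had 34.05, 101 and 93.9 CPM in RIC+DE+PFD, against 59.3, 70.9 and 50.5 CPM in DE+PFD, in the same order (log2 0.82 ± 0.24 without library 1 and 0.36 ± 0.33 with it).

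Dbp, Tef and Hlf encode clock-driven transcription factors that bind D-box elements. Dbp was at 23.3, 161 and 72.5 CPM in RIC+DE+PFD, against 5.14, 13.9 and 19.5 CPM in DE+PFD, with no overlap. Tef was at 98.9, 394 and 274 CPM in RIC+DE+PFD, against 114, 126 and 106 CPM in DE+PFD. Hlf was at 5.53, 42.8 and 25.9 CPM in RIC+DE+PFD, against 13.3, 20.6 and 11.9 CPM in DE+PFD. Libraries 2 and 3 were above DE+PFD for all 3 genes. Without library 1 the log2 fold change was 2.91 ± 1.18 for Dbp, 1.67 ± 0.51 for Tef and 1.35 ± 0.55 for Hlf, and with it 2.63 ± 1.07, 1.17 ± 0.54 and 0.74 ± 0.62.

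Nr1d1 and Nr1d2 encode REV-ERB nuclear receptors, which repress Arntl. Nr1d2 was at 16.8, 115 and 92.3 CPM in RIC+DE+PFD, against 12.4, 10.4 and 30.2 CPM in DE+PFD, and its log2 fold change was 2.50 ± 0.84 without library 1 and 1.98 ± 0.82 with it. Nr1d1 was at 41.8, 154 and 56.5 CPM in RIC+DE+PFD, against 3.10, 4.55 and 90.5 CPM in DE+PFD, so DE+PFD 3 lay within the RIC+DE+PFD range and the groups overlapped. Its log2 fold change was 1.84 ± 1.09, and 1.35 ± 1.15 without library 1. Rora, an activator at the same element, was at 22.9, 58.7 and 77.7 CPM in RIC+DE+PFD, against 85.3, 126 and 62.3 CPM in DE+PFD (log2 -0.81 ± 0.35, and -0.38 ± 0.30 without library 1).

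The October and March libraries did not show the same direction. The median of the clock genes was 0.78 in the October libraries alone and -0.81 for RIC+DE+PFD 1 against DE+PFD 1, the March pair. The median level of the list, as the deviation of log2 CPM from each gene's median over the 24 libraries, was -1.05, 0.82 and 0.41 in RIC+DE+PFD and -0.09, 0.01 and -0.46 in DE+PFD. In the other 18 libraries it ran from -0.54 to 0.46, so libraries 1 and 2 of RIC+DE+PFD were outside that range at opposite ends. Most clock genes also ranged widely elsewhere, and the other 18 libraries held 7.998 to 56.5 CPM of Arntl, 1.49 to 24.4 CPM of Npas2 and 6.04 to 193 CPM of Dbp. For Clock, the 44.2 to 79.8 CPM elsewhere lay above all 3 RIC+DE+PFD libraries. Leaving out RIC+DE+PFD 2 brought the median to 0.13, and leaving out DE+PFD 3 brought it to 0.27. The sources used here do not give the hour of day of lung collection.

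The promoters of 3 clock genes are shown because they hold the elements through which the loop is known to run. The windows are the RefSeq 250 bases before and 50 after the start site on GRCm38.p6. They lie at chr11:69098699-69098998, plus strand for Per1, at chr4:151044616-151044915, minus strand for Per3 and at chr7:113207261-113207560, plus strand for Arntl. Capitals mark the E-box CACGTG, bound by BMAL1 with CLOCK, in Per1. They also mark the D-box TTATGNAA, bound by DBP, TEF and HLF, in Per1 and Per3. In Arntl they mark the element TAGGTCA, bound by REV-ERB receptors.
Per1: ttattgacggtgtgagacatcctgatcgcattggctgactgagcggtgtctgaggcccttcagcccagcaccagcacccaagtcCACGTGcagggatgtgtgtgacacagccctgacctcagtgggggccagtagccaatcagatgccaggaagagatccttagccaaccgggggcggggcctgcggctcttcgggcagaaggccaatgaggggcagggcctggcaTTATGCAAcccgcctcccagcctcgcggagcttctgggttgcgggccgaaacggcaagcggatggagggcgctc
Per3: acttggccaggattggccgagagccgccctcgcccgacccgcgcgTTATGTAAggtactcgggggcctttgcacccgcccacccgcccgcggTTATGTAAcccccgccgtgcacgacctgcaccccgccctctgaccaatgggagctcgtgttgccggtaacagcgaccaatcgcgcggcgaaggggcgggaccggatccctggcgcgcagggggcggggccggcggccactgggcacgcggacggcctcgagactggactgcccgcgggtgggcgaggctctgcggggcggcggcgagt
Arntl: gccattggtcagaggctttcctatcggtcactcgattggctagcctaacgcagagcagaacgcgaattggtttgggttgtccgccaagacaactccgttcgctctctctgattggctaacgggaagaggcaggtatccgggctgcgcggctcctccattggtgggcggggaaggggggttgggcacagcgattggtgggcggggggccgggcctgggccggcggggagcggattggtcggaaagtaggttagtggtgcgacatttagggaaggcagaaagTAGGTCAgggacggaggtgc
Both strands were searched. The 16 clock genes with a window had 21 windows. The E-box was present in 6 of the 21 (5 genes) and in 7.15% of all 32851 windows. The D-box was present in 2 of the 21 (2 genes) and in 3.38% of all windows, and TAGGTCA in 2 (2 genes) and in 2.61%. A match describes the letters of the window, not a bound site.

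**Figure D2:**
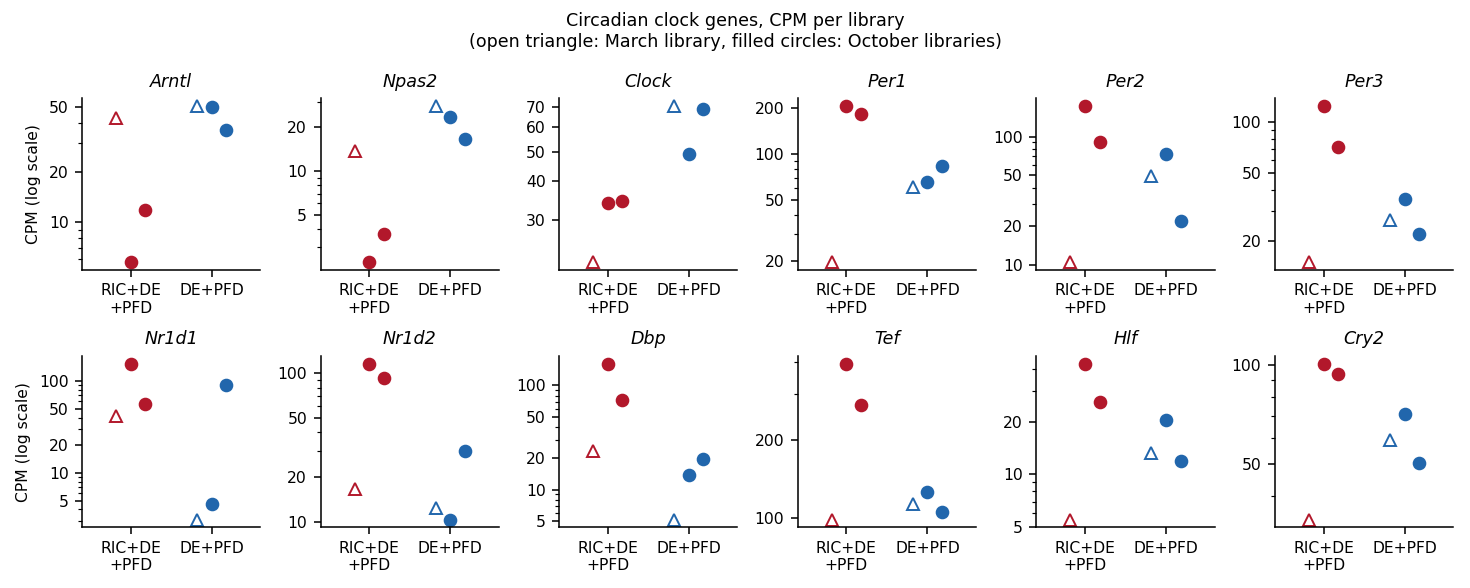
CPM per library on a log axis for 12 circadian clock genes in RIC+DE+PFD (left) and DE+PFD (right). Open triangles are March libraries and filled circles October libraries. The 2 October RIC+DE+PFD libraries are below all DE+PFD libraries for Arntl, Npas2 and Clock and above them for the other genes except Nr1d1, and the March RIC+DE+PFD library is the lowest of the 6 for all 3 Per genes.

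Interferon-induced genes had a median fold change below 0 with and without RIC+DE+PFD 1. Interferons switch on antiviral effectors and guanylate-binding and immunity-related GTPases, and in lung this response follows infection and tissue injury. Of 30 such genes tested, 29 had a log2 fold change below 0, where 48.6% of all genes did, and 12 were lower at an unadjusted p under 0.05, against 6.68% of all genes. After leaving out RIC+DE+PFD 1, 29 were again below 0, where 50.7% of all genes were, and 7 were lower at that p, where 4.34% were. The list's median was -0.71, and -0.52 without library 1. No member passed the adjusted threshold in edgeR. The 3 libraries of each group were separate for 6 of the 30, all lower, against 7.46% of all genes.

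Rsad2, the antiviral enzyme viperin, was at 3.98, 4.09 and 11.1 CPM in RIC+DE+PFD, against 25.2, 19.8 and 13.2 CPM in DE+PFD. The groups did not overlap, and the other 18 libraries lay at 7.93 to 16.9 CPM, between the lowest RIC+DE+PFD and the highest DE+PFD values. Its log2 fold change was -1.61 ± 0.34, and -1.32 ± 0.36 without library 1 (edgeR adjusted p = 0.114 and 0.285, and DESeq2 adjusted p = 0.00227 with the library). Mx2, a dynamin-like antiviral GTPase, was at 2.06, 1.36 and 1.38 CPM in RIC+DE+PFD, against 4.24, 2.94 and 3.48 CPM in DE+PFD, without overlap (log2 -1.18 ± 0.28, and -1.42 ± 0.31 without library 1). With library 1, the DESeq2 adjusted p of Mx2 was 0.0485. Oas2, a sensor of double-stranded RNA, was at 6.68, 11.9 and 20.1 CPM in RIC+DE+PFD, against 29.7, 28.1 and 15.4 CPM in DE+PFD (log2 -0.94 ± 0.39, and -0.57 ± 0.39 without library 1). Ifi44 was at 4.50, 3.46 and 7.27 CPM in RIC+DE+PFD, against 13.02, 11.8 and 6.53 CPM in DE+PFD (log2 -1.01 ± 0.34, and -0.83 ± 0.38 without library 1). In both, RIC+DE+PFD 3 was above DE+PFD 3, so the groups overlapped.

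For 4 further GTPases, chosen after their values were seen, the groups overlapped. Gbp2, a guanylate-binding protein, was at 51.9, 91.8 and 226 CPM in RIC+DE+PFD, against 241, 359.6 and 111 CPM in DE+PFD. Gbp7 was at 12.8, 31.8 and 74.97 CPM in RIC+DE+PFD, against 149, 162 and 47.2 CPM in DE+PFD. Iigp1 was at 27.6, 21.4 and 101 CPM in RIC+DE+PFD, against 173, 234 and 51.2 CPM in DE+PFD. Irgm1, a regulator of the same family, was at 58.1, 39.8 and 78.7 CPM in RIC+DE+PFD, against 102, 159 and 47.96 CPM in DE+PFD. For all 4 genes DE+PFD 1 and 2 were the 2 highest libraries of the 6, and RIC+DE+PFD 3 lay above DE+PFD 3. The log2 fold changes were -0.92 ± 0.43 for Gbp2, -1.49 ± 0.51 for Gbp7, -1.53 ± 0.61 for Iigp1 and -0.80 ± 0.34 for Irgm1, and without library 1 -0.45 ± 0.39, -0.90 ± 0.43, -1.07 ± 0.64 and -0.68 ± 0.38.

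The median level of the interferon list was -0.43, -0.41 and 0.44 in RIC+DE+PFD and 0.72, 0.92 and 0.06 in DE+PFD, and -0.25 to 0.44 in the other 18 libraries. DE+PFD 1 and 2 were thus above, and RIC+DE+PFD 1 and 2 below, all of those 18. The median fold change was -1.19 in the March pair and -0.47 in the October libraries alone. Leaving out DE+PFD 2 gave a median of -0.42, and leaving out RIC+DE+PFD 3 gave -1.14. Markers of natural killer and cytotoxic cells varied alongside. Their summed level was 226, 97.5 and 291 CPM in RIC+DE+PFD and 230.3, 341 and 160 CPM in DE+PFD, and 11 of 15 had a fold change below 0 (median -0.41), where 48.6% of all genes did. Without library 1 the fold change was below 0 for 15 of 15 (median -0.37), where 50.7% of all genes were. At an unadjusted p under 0.05, 0 of the 15 were lower in either fit, where 6.68% and 4.34% of all genes were. In both lists RIC+DE+PFD 3 was high within its group and DE+PFD 3 low within its own. Genes of MHC class I presentation summed to 10450, 7284 and 11380 CPM in RIC+DE+PFD and 9132, 12550 and 7660 CPM in DE+PFD. The part of these cells in the interferon result was not tested.

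Promoters of 3 of these genes are shown for the element they share, in the same RefSeq windows (GRCm38.p6). Rsad2 is at chr12:26456403-26456702, minus strand, Gbp7 at chr3:142530086-142530385, plus strand and Irgm1 at chr11:48871371-48871670, minus strand. Capitals mark GAAA, any 2 bases and GAAA, the core of the interferon-stimulated response element, searched on both strands. On the opposite strand it reads TTTC, any 2 bases and TTTC, as in Rsad2 and Gbp7. In Irgm1 a pair of matches overlap.
Rsad2: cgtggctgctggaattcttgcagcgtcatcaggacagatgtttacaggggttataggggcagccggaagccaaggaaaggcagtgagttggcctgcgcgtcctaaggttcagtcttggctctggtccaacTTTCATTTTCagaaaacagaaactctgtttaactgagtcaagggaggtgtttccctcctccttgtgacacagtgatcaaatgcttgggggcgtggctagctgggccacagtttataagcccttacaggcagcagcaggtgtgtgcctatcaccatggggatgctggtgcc
Gbp7: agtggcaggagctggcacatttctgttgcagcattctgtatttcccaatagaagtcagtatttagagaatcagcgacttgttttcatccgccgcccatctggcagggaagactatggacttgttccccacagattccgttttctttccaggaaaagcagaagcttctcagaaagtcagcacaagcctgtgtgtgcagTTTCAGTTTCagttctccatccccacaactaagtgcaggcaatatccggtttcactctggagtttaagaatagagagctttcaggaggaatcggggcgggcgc
Irgm1: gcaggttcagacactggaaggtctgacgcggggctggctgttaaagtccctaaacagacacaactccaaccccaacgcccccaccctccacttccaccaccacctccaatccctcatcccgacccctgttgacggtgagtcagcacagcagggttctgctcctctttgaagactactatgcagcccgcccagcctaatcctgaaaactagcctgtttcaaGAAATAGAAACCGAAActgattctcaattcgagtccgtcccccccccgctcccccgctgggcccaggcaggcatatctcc
The 23 interferon-induced genes with a window had 26 windows. The element was found in 15 of the 26 (15 genes), in 3.44% of all windows, and in none of the 16 clock genes' windows.

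**Figure D3:**
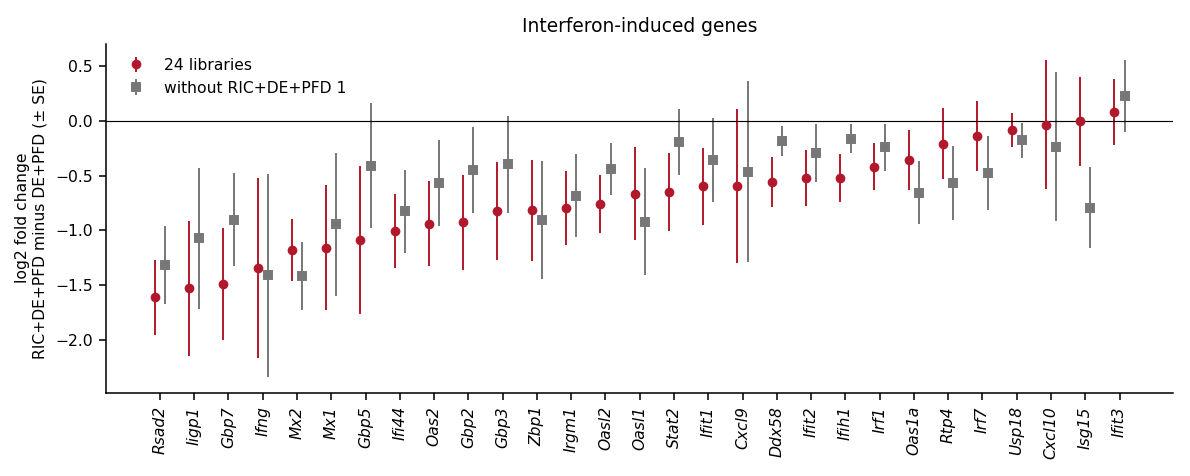
Log2 fold change (RIC+DE+PFD minus DE+PFD) with its standard error for 29 of the 30 interferon-induced genes, ordered by the fit of 24 libraries (circles), with the fit without RIC+DE+PFD 1 beside it (squares). Of the genes drawn, all but Ifit3 lie below 0 in both fits. Isg15 is at 0 to the width of the symbol in the fit of 24 libraries.

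Genes that cover long stretches of the genome had a median fold change below 0 with and without the library that stood apart. Of 836 genes spanning over 200 kb, 34.6% were lower at an unadjusted p under 0.05 in the fit of 24 libraries, where 6.68% of all genes were, and the median log2 fold change was -0.46. Once RIC+DE+PFD 1 was left out, 21.9% were lower and 1.08% higher, where 4.34% and 4.76% of all genes were, and the median was -0.28. Genes under 10 kb had medians of 0.36 with the library and -0.01 without it. Span classes were set after the values were seen, and spans come from an annotation of GRCm38. By library, the median deviation of the genes over 200 kb was -0.84, -0.15 and -0.14 in RIC+DE+PFD and 0.07, 0.32 and -0.04 in DE+PFD. RIC+DE+PFD 1 was lowest and DE+PFD 2, the library with the fewest counts, was highest. Without RIC+DE+PFD 1, Spearman's rho of the fold change across genes was -0.073 with span and 0.101 with exon length. With it, rho was -0.462 with span and -0.426 with exon length. These correlations are across genes of the same libraries and are descriptions.

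Slc8a1 (365 kb), Trps1 (236 kb), St6galnac3 (527 kb) and Adamts12 (284 kb) belong to the class over 200 kb. Further members, named after their values were seen, were Ank3, Lpp and Inpp4b. Ank3, the membrane-skeleton adaptor ankyrin-G, spans 629 kb and was at 60.6, 66.5 and 98.4 CPM in RIC+DE+PFD, against 154, 334 and 144 CPM in DE+PFD. Lpp, a focal adhesion protein, spans 599 kb and was at 33.9, 67.4 and 70.3 CPM in RIC+DE+PFD, against 115, 119 and 94.6 CPM in DE+PFD. Inpp4b, a phosphoinositide phosphatase, spans 785 kb and was at 9.77, 13.3 and 12.8 CPM in RIC+DE+PFD, against 26.3, 25.1 and 25.4 CPM in DE+PFD. The log2 fold changes were -1.47 ± 0.32 for Ank3, -0.96 ± 0.21 for Lpp and -1.11 ± 0.23 for Inpp4b, and -1.47 ± 0.36, -0.66 ± 0.16 and -1.02 ± 0.25 without library 1. With library 1, the DESeq2 adjusted p was 0.00227 for Ank3, 0.00281 for Lpp and 0.00281 for Inpp4b.

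Some RNAs that stay in the nucleus were also at lower levels in RIC+DE+PFD. Malat1, an abundant noncoding RNA of nuclear speckles, was at 169, 550.5 and 818 CPM in RIC+DE+PFD, against 1864, 2689 and 1026 CPM in DE+PFD. Kcnq1ot1, the noncoding RNA that silences an imprinted cluster, was at 4.50, 13.01 and 16.7 CPM in RIC+DE+PFD, against 22.7, 44.95 and 24.2 CPM in DE+PFD. Mir99ahg, the host transcript of a microRNA cluster, was at 14.3, 11.3 and 20.2 CPM in RIC+DE+PFD, against 25.6, 43.1 and 34.9 CPM in DE+PFD. None of the 3 overlapped between the groups. The log2 fold change of Malat1 was -1.96 ± 0.43, and -1.46 ± 0.37 without library 1 (edgeR adjusted p = 0.114 and 0.26). It was -1.45 ± 0.35 and -1.09 ± 0.33 for Kcnq1ot1, and -1.16 ± 0.27 and -1.24 ± 0.30 for Mir99ahg. With library 1, the DESeq2 adjusted p was 0.00133 for Malat1, 0.0112 for Kcnq1ot1 and 0.0133 for Mir99ahg. Malat1 itself spans only 6.98 kb. Neat1, the scaffold of nuclear paraspeckles, was at 502, 1432 and 1671 CPM in RIC+DE+PFD, against 1199, 1387 and 1110 CPM in DE+PFD, and its log2 fold change was -0.13 ± 0.30, turning to 0.24 ± 0.25 without library 1. The list named nuclear-retained long RNAs had 8 members tested, and whether each of them stays in the nucleus was not tested. Of the 8, these first 3 were lower and 1, Gas5, was higher at an unadjusted p under 0.05, where 6.68% and 10.7% of all genes were. Without library 1, 3 were lower and 0 higher, where 4.34% and 4.76% of all genes were (Gas5 log2 0.79 ± 0.36, and -0.05 ± 0.23 without library 1). Libraries were made from RNA captured by its poly(A) tail, per the labels.

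**Figure D4:**
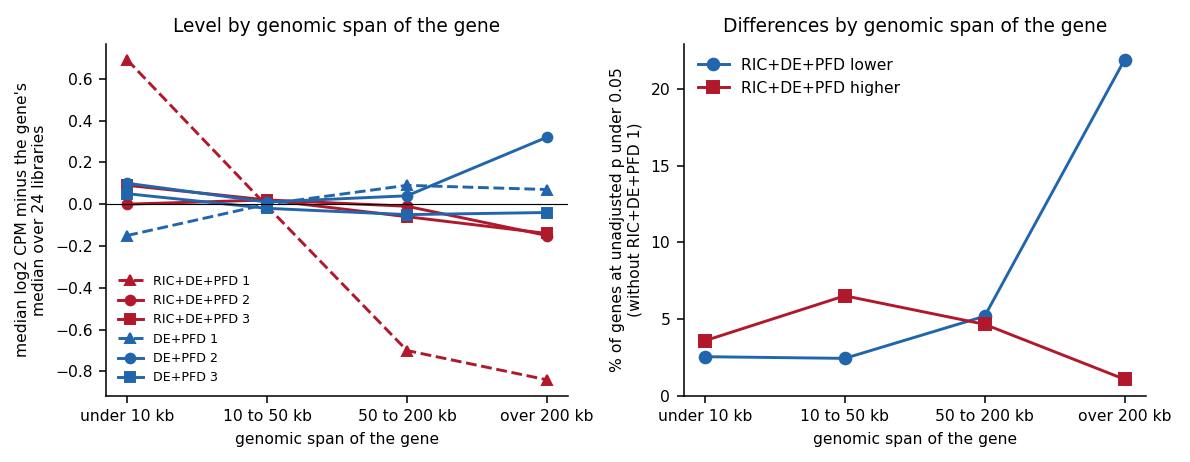
Left: median deviation of log2 CPM from the 24-library median, by genomic span of the gene, for each RIC+DE+PFD and DE+PFD library (dashed lines are March libraries). Right: percent of genes in each class at an unadjusted p under 0.05 without RIC+DE+PFD 1, lower or higher in RIC+DE+PFD. In the class over 200 kb, 21.9% were lower and 1.08% higher, and RIC+DE+PFD 1 runs from 0.69 for genes under 10 kb to -0.84.

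Ribosomal protein, respiratory chain and proteasome genes were high in RIC+DE+PFD library 1 and not in libraries 2 and 3. All 79 of the cytosolic ribosomal protein genes tested had fold changes above 0, where 51.4% of all genes did, and 63 were higher at an unadjusted p under 0.05, against 10.7% of all genes. Without library 1, 32 were above 0 and 0 were higher at that p, where 49.3% and 4.76% of all genes were. The median was 0.99 with the library, -0.01 without it, 2.36 in the March pair and -0.03 in the October libraries. Rps2 was at 3011, 675 and 717 CPM in RIC+DE+PFD, against 497, 673 and 678 CPM in DE+PFD. Rpl36 was at 1337, 393 and 435 CPM in RIC+DE+PFD, against 207, 355 and 406 CPM in DE+PFD. In both, library 1 was several times every other value and libraries 2 and 3 were close to or among the DE+PFD values. Genes of this family have near-identical copies elsewhere in the genome, which makes their counts uncertain.

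For the 80 nuclear genes of oxidative phosphorylation the median was 0.78 with RIC+DE+PFD 1 and -0.12 without it. Cox4i1, a subunit of cytochrome c oxidase, was at 1482, 400.4 and 456 CPM in RIC+DE+PFD, against 278, 378 and 412 CPM in DE+PFD. The 24 proteasome genes had medians of 0.53 and 0.00, and the 27 translation factors of 0.52 and 0.02. Eef2, the elongation factor, was higher in all 3 libraries, at 3611, 2650 and 2011 CPM in RIC+DE+PFD, against 1882, 1754 and 1731 CPM in DE+PFD. Its log2 fold change was 0.61 ± 0.19 with library 1 (DESeq2 adjusted p = 0.0167) and 0.40 ± 0.16 without. The 34 antioxidant genes, most of them targets of the NRF2 transcription factor, had medians of 0.44 and 0.02, with 8 higher at an unadjusted p under 0.05 with library 1 and 1 without, where 10.7% and 4.76% of all genes were. Sod1, the cytosolic superoxide dismutase, was at 1902, 681 and 719 CPM in RIC+DE+PFD, against 539.5, 586 and 704 CPM in DE+PFD. The opposite sign held for the 27 ubiquitin ligases and large scaffold proteins, at -0.41 with the library and 0.09 without.

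Matrix and TGF-beta genes, the usual readouts of fibrosis, had list medians from -0.13 to 0.11 without RIC+DE+PFD 1. The median of all genes was then -0.01. The lowest was that of 25 matrix proteases and inhibitors, at -0.23 with library 1. Of these 25, 1 was higher and 6 lower at an unadjusted p under 0.05, where 10.7% and 6.68% of all genes were. Without library 1 there were 3 and 2, where 4.76% and 4.34% of all genes were. Of 22 elastic fibre and crosslinking genes, 1 was higher and 3 lower at that p, and 2 and 3 without library 1. The 20 fibrillar collagen and collagen assembly genes had a median of -0.13, and 0.00 without RIC+DE+PFD 1. At an unadjusted p under 0.05, 1 was higher and 2 lower in the fit of 24 libraries, where 10.7% and 6.68% of all genes were. Without library 1 there were 1 and 0, where 4.76% and 4.34% of all genes were. All 3 RIC+DE+PFD libraries lay below DE+PFD for 5 of the 20 and above for 1, where 7.46% and 5.25% of all genes did. Col1a1, the main fibrillar collagen chain, was at 71.1, 212 and 255 CPM in RIC+DE+PFD, against 199, 338 and 227 CPM in DE+PFD. Col3a1 was at 176, 314 and 306 CPM in RIC+DE+PFD, against 479.7, 498 and 389 CPM in DE+PFD. Library 1 was the lowest of the 6 for both, and libraries 2 and 3 overlapped DE+PFD for Col1a1 and lay below it for Col3a1. Their log2 fold changes were -0.57 ± 0.38 and -0.78 ± 0.35, and -0.17 ± 0.36 and -0.50 ± 0.37 without library 1. The 27 TGF-beta ligands, receptors and Smads had medians of -0.21 and 0.05. At an unadjusted p under 0.05, 0 of them were higher and 2 lower with library 1, and 2 and 1 without it. Of all genes, 10.7% and 6.68% were with library 1, and 4.76% and 4.34% without it.

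Itgb6, the integrin chain that activates latent TGF-beta on injured epithelium, was at 35.5, 21.7 and 24.1 CPM in RIC+DE+PFD, against 46.2, 38.5 and 55.03 CPM in DE+PFD. All RIC+DE+PFD libraries were below all DE+PFD libraries, with a log2 fold change of -0.80 ± 0.25, and -1.05 ± 0.26 without library 1 (edgeR adjusted p = 0.246 and 0.26). Ccn2, connective tissue growth factor and a TGF-beta target, was at 115, 301 and 314 CPM in RIC+DE+PFD, against 155, 189.7 and 128 CPM in DE+PFD. Libraries 2 and 3 were above DE+PFD and library 1 below it, for log2 0.99 ± 0.24 without library 1 and 0.60 ± 0.30 with it. Tnxb, a tenascin, was at 46.3, 210.3 and 202 CPM in RIC+DE+PFD, against 72.7, 169.9 and 72.3 CPM in DE+PFD, in the same order (log2 0.94 ± 0.32 without library 1 and 0.48 ± 0.39 with it). Lrrc32, which presents latent TGF-beta at the cell surface, was at 50.6, 135 and 102 CPM in RIC+DE+PFD, against 111, 67.2 and 45.9 CPM in DE+PFD, with overlap (log2 0.87 ± 0.32 without library 1 and 0.41 ± 0.36 with it). Tnxb and Lrrc32 were not among the 3 genes of smallest p of any list. Tgfb3 and Bmpr2 were for TGF-beta, and Vcan and Comp for fibronectin and matricellular genes, each lower in the fit of 24 libraries. Of the 20 fibronectin and matricellular genes, 0 were higher and 0 lower at an unadjusted p under 0.05, where 10.7% and 6.68% of all genes were. Without library 1 there were 3 and 1, where 4.76% and 4.34% of all genes were.

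Of the 14 genes of transitional injured epithelium, 8 were below 0 (median -0.07), where 48.6% of all genes were, and 13 without library 1 (median -0.30), where 50.7% were. In each fit 2 were lower at an unadjusted p under 0.05, where 6.68% and 4.34% of all genes were. A pair of its members was picked after their values were seen. Krt5, the basal cell keratin, was at 0.257, 2.001 and 1.04 CPM in RIC+DE+PFD, against 9.76, 2.14 and 11.96 CPM in DE+PFD. Trp63, the transcription factor of basal cells, was at 0.514, 0.637 and 0.577 CPM in RIC+DE+PFD, against 2.65, 1.34 and 1.85 CPM in DE+PFD. Neither gene overlapped between the groups, though for Krt5 RIC+DE+PFD 2 at 2.001 CPM was close to DE+PFD 2 at 2.14 CPM. Both genes had low counts in RIC+DE+PFD, and Trp63 also in DE+PFD. Their log2 fold changes were -2.97 ± 1.55 and -1.73 ± 0.85 (edgeR adjusted p = 0.317 and 0.294), and -2.58 ± 1.81 and -1.54 ± 1.02 without library 1. Of the 18 alveolar macrophage genes, 11 were below 0 (median -0.24), where 48.6% of all genes were, and 17 without library 1 (median -0.46), where 50.7% were. In each fit 2 were lower at an unadjusted p under 0.05, against 6.68% and 4.34% of all genes. With library 1, 1 gene, Car4, was higher at that p, and without it 0 were, against 10.7% and 4.76% of all genes. The 18 genes summed to 2123, 1108 and 1040 CPM in RIC+DE+PFD and 1738, 1254 and 1489 CPM in DE+PFD. By that sum RIC+DE+PFD 1 was the highest of the 6 libraries. Mrc1, the macrophage mannose receptor, was at 25.96, 35.8 and 34.1 CPM in RIC+DE+PFD, against 68.4, 41.5 and 56.6 CPM in DE+PFD, without overlap (log2 -0.78 ± 0.23, and -0.59 ± 0.24 without library 1). Marco, a scavenger receptor for inhaled particles, was at 25.4, 15.01 and 10.7 CPM in RIC+DE+PFD, against 50.2, 27.8 and 28.9 CPM in DE+PFD, also without overlap (log2 -1.08 ± 0.57, and -1.30 ± 0.69 without library 1). Marco was not among the 3 genes of the list with the smallest p. Of the 25 proliferation genes, 14 were below 0 (median -0.16), where 48.6% of all genes were, and 19 without library 1 (median -0.27), where 50.7% were. At an unadjusted p under 0.05, 1 was higher and 4 lower with library 1, where 10.7% and 6.68% of all genes were. Without it 0 were higher and 3 lower, where 4.76% and 4.34% of all genes were. Mki67, a marker of cycling cells and among the list's genes of smallest p, was at 5.27, 9.82 and 13.96 CPM in RIC+DE+PFD, against 23.2, 20.1 and 17.3 CPM in DE+PFD (log2 -1.02 ± 0.34, and -0.60 ± 0.31 without library 1).

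Plasma cell and immunoglobulin genes had a median of 0.63, and 0.75 without library 1, with 11 of 13 above 0 with the library and 9 without, where 51.4% and 49.3% of all genes were. With the library 1 was higher at an unadjusted p under 0.05, and 0 without, where 10.7% and 4.76% of all genes were. Jchain, which joins immunoglobulin A and M units, was at 187, 190.3 and 117 CPM in RIC+DE+PFD, against 120.1, 64.7 and 83.97 CPM in DE+PFD. Igha, the immunoglobulin A heavy chain, was at 381, 1074 and 692 CPM in RIC+DE+PFD, against 378, 471 and 484 CPM in DE+PFD. Derl3, a protein of secretory cells, was at 4.50, 4.82 and 3.46 CPM in RIC+DE+PFD, against 2.12, 1.07 and 1.63 CPM in DE+PFD. Derl3 was higher in all 3 libraries without overlap, while the groups overlapped for Jchain and Igha. The edgeR adjusted p was 0.346 for Jchain, 0.503 for Igha and 0.248 for Derl3, with log2 fold changes of 0.90 ± 0.50, 0.63 ± 0.50 and 1.31 ± 0.52, and 0.90 ± 0.57, 0.87 ± 0.54 and 1.17 ± 0.60 without library 1.

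Fat and blood content varied between libraries. The 12 adipocyte genes summed to 578, 512 and 270.1 CPM in RIC+DE+PFD and 1223, 505 and 695 CPM in DE+PFD, and to 213 to 3314 CPM in the other 18 libraries. All 12 had fold changes below 0 (median -1.07), and 11 of 12 without library 1 (median -1.37), where 48.6% and 50.7% of all genes did. With the library 1 was lower at an unadjusted p under 0.05, and 0 without, where 6.68% and 4.34% of all genes were. Adipoq, the adiponectin gene, was at 24.7, 21.7 and 7.15 CPM in RIC+DE+PFD, against 79.2, 16.3 and 41.5 CPM in DE+PFD, with overlap. Globin and erythroid genes summed to 12090, 3008 and 3607 CPM in RIC+DE+PFD and 4476, 3948 and 6453 CPM in DE+PFD. Of 10 tested, 5 were below 0 with library 1 (median -0.04), where 48.6% of all genes were, and 10 without it (median -0.69), where 50.7% were. The part of these in the other differences was not tested.

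**Figure D5:**
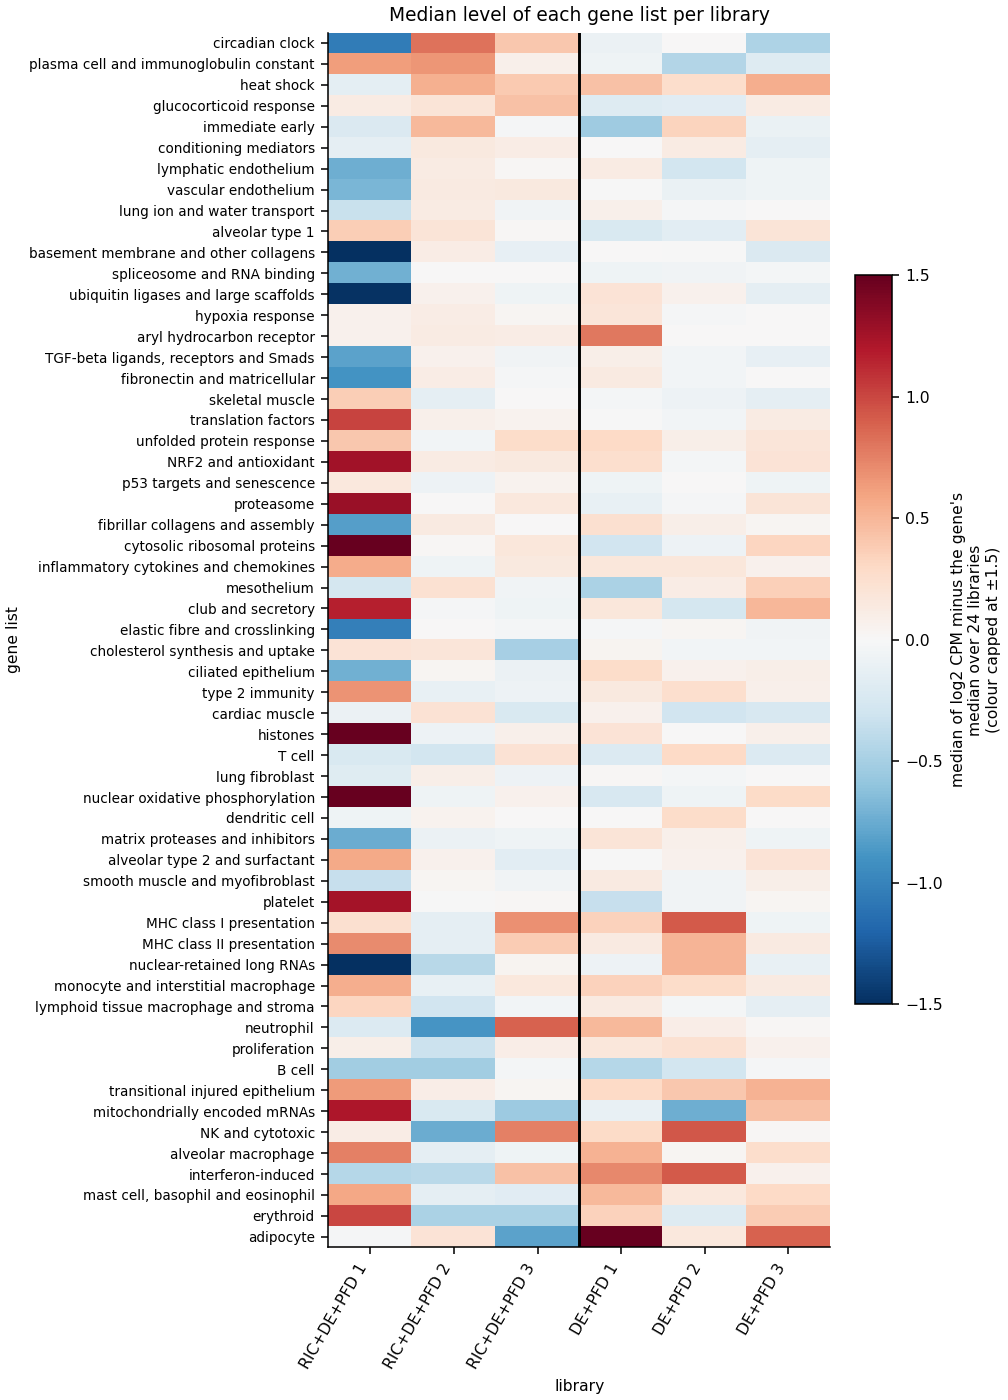
Median level of 58 gene lists (rows, ordered by their median log2 fold change without RIC+DE+PFD 1) in the 3 RIC+DE+PFD libraries (left of the line) and the 3 DE+PFD libraries (right), as the median deviation of log2 CPM from each gene's median over 24 libraries. RIC+DE+PFD 1 is red for ribosomal protein genes (2.06) and blue for clock genes (-1.05), while RIC+DE+PFD 2 and 3 are red for clock genes (0.82 and 0.41).

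Of 22 conditioning mediators tested, 3 were higher and 0 lower at an unadjusted p under 0.05, where 10.7% and 6.68% of all genes were, and 3 and 0 without library 1, where 4.76% and 4.34% were. The median was 0.05, or 0.15 without library 1. Bdkrb1, the inducible bradykinin receptor, was at 4.11, 5.002 and 4.27 CPM in RIC+DE+PFD, against 1.97, 2.67 and 2.39 CPM in DE+PFD. It was higher in all 3 libraries without overlap, by log2 0.97 ± 0.35, and 1.12 ± 0.38 without library 1 (edgeR adjusted p = 0.248 and 0.395), though the other 18 libraries reached 5.10 CPM. Cx3cl1, the chemokine fractalkine of endothelium and epithelium, was at 51.3, 90.04 and 65.5 CPM in RIC+DE+PFD, against 36.7, 54.3 and 46.9 CPM in DE+PFD, with 1 overlapping pair of libraries (log2 0.58 ± 0.19, and 0.69 ± 0.20 without library 1). It was named from another list, 36 inflammatory cytokines and chemokines, with medians of 0.22 and, without library 1, -0.02. Of these 36, 2 were higher and 0 lower at an unadjusted p under 0.05, where 10.7% and 6.68% of all genes were. Without library 1 there were 3 and 2, where 4.76% and 4.34% of all genes were. The 15 heat shock genes had a median of 0.20 with library 1, with 9 above 0, and of 0.33 without it, with 15 above 0, where 51.4% and 49.3% of all genes were. The list's median level by library was -0.15, 0.53 and 0.39 in RIC+DE+PFD and 0.44, 0.26 and 0.54 in DE+PFD. The groups thus overlapped, and DE+PFD 3 was the highest of the 6. At an unadjusted p under 0.05, 1 of the 15 was higher with library 1 and 0 without, where 10.7% and 4.76% of all genes were. Cyp1a1, the enzyme induced by the aryl hydrocarbon receptor, was at 1.16, 3.82 and 4.04 CPM in RIC+DE+PFD, against 294, 10.7 and 4.68 CPM in DE+PFD. The groups did not overlap, and DE+PFD 1 was far above every other library of the 6 and above the 3.12 to 153 CPM of the other 18. The log2 fold change was -3.23 ± 1.28, or -1.54 without DE+PFD 1 and -1.94 ± 1.29 without RIC+DE+PFD 1 (edgeR adjusted p = 0.248 with all libraries and 0.685 without RIC+DE+PFD 1).

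Whether preconditioning acted differently with pirfenidone than without it was tested as an interaction, RIC+DE+PFD minus DE+PFD less RIC+DE minus DE. The RIC+DE libraries are all dated March and the DE libraries all October, so between them date and treatment cannot be told apart, and the test rests on the batch term as estimated from the other groups. No carboxymethylcellulose or dosing by mouth is listed for RIC+DE and DE mice, so drug and vehicle cannot be told apart here either. In edgeR 0 of 17490 genes passed, and 4763 (27.2%) had an unadjusted p under 0.05. Without RIC+DE+PFD 1, 0 passed and 792 (4.5%) had such a p. DESeq2 called 1912 with the library. The edgeR count past the adjusted threshold was 2879 without RIC+DE+PFD 2 and 2037 without RIC+DE+PFD 3. Of the clock genes 1 and of the interferon genes 1 had an unadjusted p under 0.05 without RIC+DE+PFD 1, with medians of 0.56 and -0.25.

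Preconditioning and perconditioning were compared under the same drug, RIC+DE+PFD against DE+PFD+RIC, whose mice were conditioned during the exposure. In edgeR 0 of 17490 genes passed, with 4927 (28.2%) at an unadjusted p under 0.05, and without RIC+DE+PFD 1, 0 passed and 679 (3.86%) had such a p. DESeq2 called 2494 with the library. The edgeR count was 4195 without RIC+DE+PFD 2 and 2565 without RIC+DE+PFD 3. Without library 1, 6 of the 19 clock genes and 6 of the 30 interferon genes had an unadjusted p under 0.05, with medians of 0.45 and 0.35. The comparison uses the same RIC+DE+PFD libraries as the one with DE+PFD. The ribosomal protein genes had a median of 1.37 with library 1 and 0.17 without it.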

How the data were processed

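Gene counts of 24 lung RNA-seq libraries, 8 groups of 3, were analysed as the authors deposited them. Per the labels, polyadenylated RNA was captured and libraries were strand-specific. Per the submitters' processing notes, the tools were FastQC 0.12.1, fastp 0.23.4, STAR 2.7.11b and featureCounts, with GRCm39. The table held 78275 genes, of which 51486 had a symbol and 98.45% of counts. The sources used here do not say what was done on the batch date.

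Counts were fitted with edgeR 4.0.16 in R 4.3.3 (quasi-likelihood test, TMM scaling, filterByExpr, group and batch date, 24 libraries), with Benjamini-Hochberg adjustment over all genes and a threshold of 0.05. The fit was repeated without RIC+DE+PFD 1. CPM per library are counts divided by TMM-scaled totals. DESeq2 1.42.0, limma 3.58.1 voom with quality weights, other filters, scalings and batch terms, October libraries alone, a replicate block and leaving out each library were alternatives, and the scripts were tested on simulated data. Named genes are those past the threshold, otherwise the 6 per direction with the smallest p without RIC+DE+PFD 1, the 3 of each list with the smallest p, and set readout genes, all with a mean of at least 1 CPM over the 6 libraries. The text prints a part of them. Most of the other clock, interferon-induced and marker genes it prints were chosen after their values were seen. The groups, the 58 gene lists and the tests were chosen with earlier results of these data known. Replicates of each group differed by more than counting noise, and none was merged. Counting intervals were not used, since the spread between libraries exceeds counting error. Precision was lowest in DE+PFD 2, the shallowest library. Values of 3 genes are not reported here.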

Additional observations from a re-analysis of the deposited data

How the results depend on the processing

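The edgeR count of genes past the adjusted threshold, 0 higher and 0 lower in RIC+DE+PFD, was also 0 without a batch term and within the compared groups alone. DESeq2 gave 44 higher and 94 lower, no filter on low counts 394 and 280, voom with quality weights 1 and 2, and the October libraries alone 1 and 4. DESeq2 size factors, the November library counted as October and a filter of 1 CPM each gave 1 lower. Leaving out libraries gave 0 higher and 0 to 23 lower, with 23 without DE+PFD 3 and 15 without RIC+DE+PFD 3. Without RIC+DE+PFD 1, the counts of higher and lower genes were 20 and 38 with DESeq2, 138 and 184 with no filter, 8 and 7 with voom, 1 and 4 in October libraries, and 2 and 4 in the compared groups alone. Leaving out a further library gave 0 to 1 higher and 0 lower. The cause of these differences was not tested.

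For the difference with and without pirfenidone, 0 genes became 1912 with DESeq2, 1308 in the compared groups alone, 1653 without a batch term, 2179 with no filter and 0 to 2879 with a library left out. No fit of October libraries alone was possible, since RIC+DE has none. For preconditioning against perconditioning, 0 became 2494 with DESeq2, 924 without a batch term, 1959 with no filter and 0 to 4195 with a library left out.

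The replicate numbers did not pair the libraries: deviations of same-numbered libraries correlated at -0.215, -0.037 and -0.382. With the replicate number as a block, 0 genes were higher and 0 lower, with or without the batch term, and the block beside the batch term gave 6 genes for the difference with and without pirfenidone.

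Of 770 values of single genes under other settings, 766 had the same direction and 65 passed the threshold. The reversals were Neat1, at 0.32 in October libraries and 0.29 with voom, and Gas5, at -0.06 and -0.00. With a library left out 411 of 420 had the same direction. The ranges of the exceptions were -0.20 to 0.66 for Aebp1, -0.05 to 1.16 for Gas5, -0.12 to 0.23 for Ifit3, -0.36 to 0.24 for Neat1 and -1.96 to 0.21 for Tulp1. Of 986 list medians under other settings, 925 moved by less than the spread between libraries. With 3 libraries a group and 3906807 counts in the shallowest, small differences in genes of a few CPM were not detectable. Larger differences were often missed too. For RIC+DE+PFD against DE+PFD, recovery in simulated data was only 2.99% where the planted difference was 1.5-fold. It rose to 29.9% for planted 2-fold differences, and to 75.8% where they were 4-fold. The lack of genes past the edgeR threshold therefore does not show that 2-fold differences were absent.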
